A study of Mus musculus with 8 samples.

Results

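The translation initiation and elongation factor genes were defined by name, as gene symbols that begin with Eif1 to Eif6, Eef1 or Eef2. The eIF2 kinases (Eif2ak genes), the sex-chromosome genes Eif2s3x, Eif2s3y and Eif1ax, and pseudogene symbols were left out, and a gene needed at least 80 sense reads summed over the 8 libraries. Of the 25229 gene symbols in the files, 72 fit the name pattern, 7 of these were left out by name and 8 fell under the read minimum, which left 57 factor genes. The last gene inside the minimum was Eif3j1 with 532 reads and the first outside was Eif5a2 with 78, while Eef1a2, a form of elongation factor 1 alpha known from muscle and neurons, had 2. The naming rule uses no difference between genotypes.

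Initiation factors bring the small ribosomal subunit to an mRNA and to its start codon. The eIF4 factors bind the cap and unwind the leader, eIF3 is the scaffold on the small subunit, eIF2 carries the initiator tRNA, and eIF1, eIF1A, eIF5 and eIF5B govern the choice of the start codon and the joining of the large subunit. Elongation factors then deliver each aminoacyl-tRNA (eEF1A, recharged by the eEF1B complex), move the ribosome along (eEF2) and help it past difficult stretches (eIF5A). Hepatocytes secrete most plasma proteins and are among the most active protein-making cells of the body.

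The libraries came from liver cells of C57BL/6 mice that all lacked Ifih1 (Ifih1-/-, without the double-stranded RNA sensor MDA5) and all carried Alb-Cre, a recombinase driven by the albumin promoter and therefore active in hepatocytes. They differed at Adar1, the gene of an RNA-editing enzyme: 3 mice were Adar1 flox/flox, 2 were wt/flox and 3 were wt/wt, each group holding mice of 7, 9 or 11 weeks, except wt/flox with 9 and 11 weeks. The design text counts 2 flox/flox mice, but 3 libraries carry that label and all were used. Livers were dissociated with collagenase and the cells were pelleted slowly and cleared on Percoll, which enriches hepatocytes, and RNA was depleted of ribosomal RNA and sequenced with its strand kept.

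Sense reads in genes numbered 75875711 to 132303735 per library. A count per 1000000 reads of TMM-scaled library size is written CPM. Adar, for which the labels do not name the deleted exons, ranged over 35.9 to 49.4 CPM in flox/flox, 22.0 to 31.8 in wt/flox and 28.1 to 53.6 in wt/wt, so whole-gene reads did not show the deletion, and Ifih1 had at most 4 reads in a library. Xist and Y-linked reads contradicted the labelled sex of flox/flox replicates 1 and 2. By these reads the wt/flox libraries, flox/flox replicate 1 and wt/wt replicates 1 and 2 were male. The other libraries, flox/flox replicates 2 and 3 and wt/wt replicate 3, were female. File names mark the wt/wt libraries as a batch apart from the other 5, so genotype and batch cannot be told apart in any comparison with wt/wt, whereas flox/flox and wt/flox carry the same mark. The 10 hepatocyte markers came to 18.9% to 27.7% of the TMM-scaled library size in flox/flox, 18.3% to 19.9% in wt/flox and 11.7% to 13.7% in wt/wt. The scaling differs between libraries, so these are not shares of raw reads. In these bulk samples, fewer cells of a type and less RNA per cell cannot be told apart.

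Promoters of 5 genes are shown because members that differed in their fold changes share short motifs in them: 4 belong to genes that were lower in flox/flox than in wt/wt, and Eif4ebp2 was not called. Each line gives the 250 bases before a RefSeq start (GRCm38.p6), 5′ to 3′ on the gene's strand, from windows that touch no annotated GENCODE exon; for Eif5a, which has 6 RefSeq starts, the window lies inside the longest gene model. Capitals mark CACGTG, the E-box core bound by MYC, MAX and USF proteins, and CCGGAAG or its reverse complement CTTCCGG, a core of ETS family sites.
Eif5a, chr11:69921387-69921636, minus strand: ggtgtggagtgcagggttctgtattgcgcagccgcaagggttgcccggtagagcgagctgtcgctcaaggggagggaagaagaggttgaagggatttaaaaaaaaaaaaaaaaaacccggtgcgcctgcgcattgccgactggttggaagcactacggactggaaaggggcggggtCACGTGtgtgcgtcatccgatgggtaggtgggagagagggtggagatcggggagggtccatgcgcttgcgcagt
Eif3f, chr7:108934165-108934414, plus strand: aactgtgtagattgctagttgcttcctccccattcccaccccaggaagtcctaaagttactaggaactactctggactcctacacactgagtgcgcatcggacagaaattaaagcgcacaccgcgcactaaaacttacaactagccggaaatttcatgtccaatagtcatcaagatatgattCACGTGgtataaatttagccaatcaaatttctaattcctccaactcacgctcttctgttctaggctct
Eif3d, chr15:77970825-77971074, minus strand: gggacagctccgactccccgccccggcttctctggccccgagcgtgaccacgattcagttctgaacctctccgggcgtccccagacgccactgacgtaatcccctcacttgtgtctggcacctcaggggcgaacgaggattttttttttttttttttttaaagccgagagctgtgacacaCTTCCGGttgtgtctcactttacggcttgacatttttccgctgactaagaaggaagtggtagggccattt
Eif4a1, chr11:69672424-69672673, minus strand: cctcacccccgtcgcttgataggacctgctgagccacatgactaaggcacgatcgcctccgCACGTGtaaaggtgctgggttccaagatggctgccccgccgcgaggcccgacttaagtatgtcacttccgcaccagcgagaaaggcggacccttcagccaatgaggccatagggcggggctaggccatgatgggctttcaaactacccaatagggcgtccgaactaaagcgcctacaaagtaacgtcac
Eif4ebp2, chr10:61452670-61452919, minus strand: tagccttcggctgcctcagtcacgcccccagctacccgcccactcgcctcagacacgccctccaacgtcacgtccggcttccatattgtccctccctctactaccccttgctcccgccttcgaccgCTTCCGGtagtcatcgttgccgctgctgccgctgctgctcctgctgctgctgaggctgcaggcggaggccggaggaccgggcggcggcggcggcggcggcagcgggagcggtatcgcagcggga

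RefSeq promoters were found for 44 of the 57 factor genes. CACGTG, a palindrome, occurred in the 250 bases before a start of 12 of these 44 genes (27.3%), against 6.86% of 27025 genes in the table and 9.55% of the 11491 tested genes found there. CCGGAAG, searched on both strands, occurred in 10 of the 44 (22.7%), against 7.83% of all genes and 14.4% of the tested ones. CACGTG was present in 9 of the 23 genes that were lower in flox/flox than in wt/wt and in 3 of the 21 that were not, and CCGGAAG in 7 of the 23 and 3 of the 21. Both motifs occurred in Eif5a and Eif1b, the genes with the lowest fold changes described below, and the Eif5a window shown holds CACGTG alone. These are matches of letters, with no test, and genes with several starts had more chances to hold one.

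All 57 factor genes passed the expression filter and were tested together with the other genes, 14728 in all. In flox/flox against wt/wt, 30 factor genes were lower and 1 was higher (edgeR quasi-likelihood test, Benjamini-Hochberg adjusted p under 0.05). The lower ones made up 52.6% of the factor genes, while among all tested genes 14.7% were lower, 15.1% were higher and 29.9% were called in either direction. The median log2 fold change was -0.59 over the factor genes and 0.02 over all tested genes. The lower genes fell by 1.29-fold to 2.32-fold, with adjusted p from 0.00132 to 0.0488. In 29 of the 30 every flox/flox library was below every wt/wt library, with Eif2b1 the exception. Over all factor genes the count was 38 of 57, against 22% of tested genes, and 1 lay wholly above, against 23%. Of the 26 genes not called, 20 had a negative fold change. The 30 lower genes kept a negative fold change in all 22 alternative analyses, and 13 of them also kept their call in all 22: Eif5a, Eif1b, Eif3g, Eif3i, Eif1ad, Eif2s2, Eif3f, Eif4ebp1, Eef1b2, Eif4a1, Eif3d, Eif4h and Eef1d. Without wt/wt replicate 2 the count of lower factor genes was 15, and the share of all tested genes called lower was 7.89%.

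Mean levels were lowest in flox/flox, intermediate in wt/flox and highest in wt/wt for 41 of the 57 factor genes, and for 23.9% of all tested genes. For flox/flox against wt/flox, the comparison within one batch mark, 0 factor genes were called, as were 0% of all tested genes: the lowest adjusted p of any gene was 0.558. In simulated counts of this comparison, 0% of genes changed 1.5-fold and 7.46% of those changed 2-fold were called. The 0 calls therefore do not show that differences of this size are absent. At an unadjusted p under 0.05 there were 6 factor genes, against 8.42% of tested genes, and DESeq2 called 0 factor genes, with 47 genes higher and 28 lower of the 14728. The fold change was negative for 50 of the 57, with a median of -0.27 against 0.04 over all tested genes. In 19 factor genes every flox/flox library was below both wt/flox libraries, against 13.1% of tested genes, and 1 lay wholly above, against 14.2%. Both wt/flox libraries were male by transcripts and flox/flox replicates 2 and 3 female, so sex differed in part along with genotype here. With a term for that sex the median was -0.12, against 0.001 over all tested genes, and 46 of the 57 were negative. For wt/flox against wt/wt, 5 factor genes were lower (Eif5a, Eif3f, Eif3g, Eif3i and Eif6) and 1 was higher (Eif3j1), where 5.89% of tested genes were lower and 6.58% higher. The median there was -0.35, against -0.06 over all tested genes. Leaving out flox/flox replicate 1 or 3 gave a lower count of 10, where 8.06% and 6.79% of all tested genes were lower, and leaving out flox/flox replicate 2 gave 1, where 3.66% were. With either wt/flox library left out 0 factor genes and 0 of all tested genes were called. Leaving out wt/wt replicates 1, 2 and 3 in turn gave 1, 0 and 2 lower factor genes, with 1.34%, 0.184% and 3.39% of all tested genes lower, so these low counts go with few calls in the whole table. The comparisons share libraries, so their values for the same gene are not independent.

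With a term for sex read from the transcripts, 26 factor genes were lower and 1 higher in flox/flox against wt/wt, where 14.6% of tested genes were lower and 14.5% higher. Under the same term 11 were lower and 1 higher in wt/flox against wt/wt, where the shares of tested genes were 6.9% and 7.58%, and 0 were called in flox/flox against wt/flox.

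**Figure D1:**
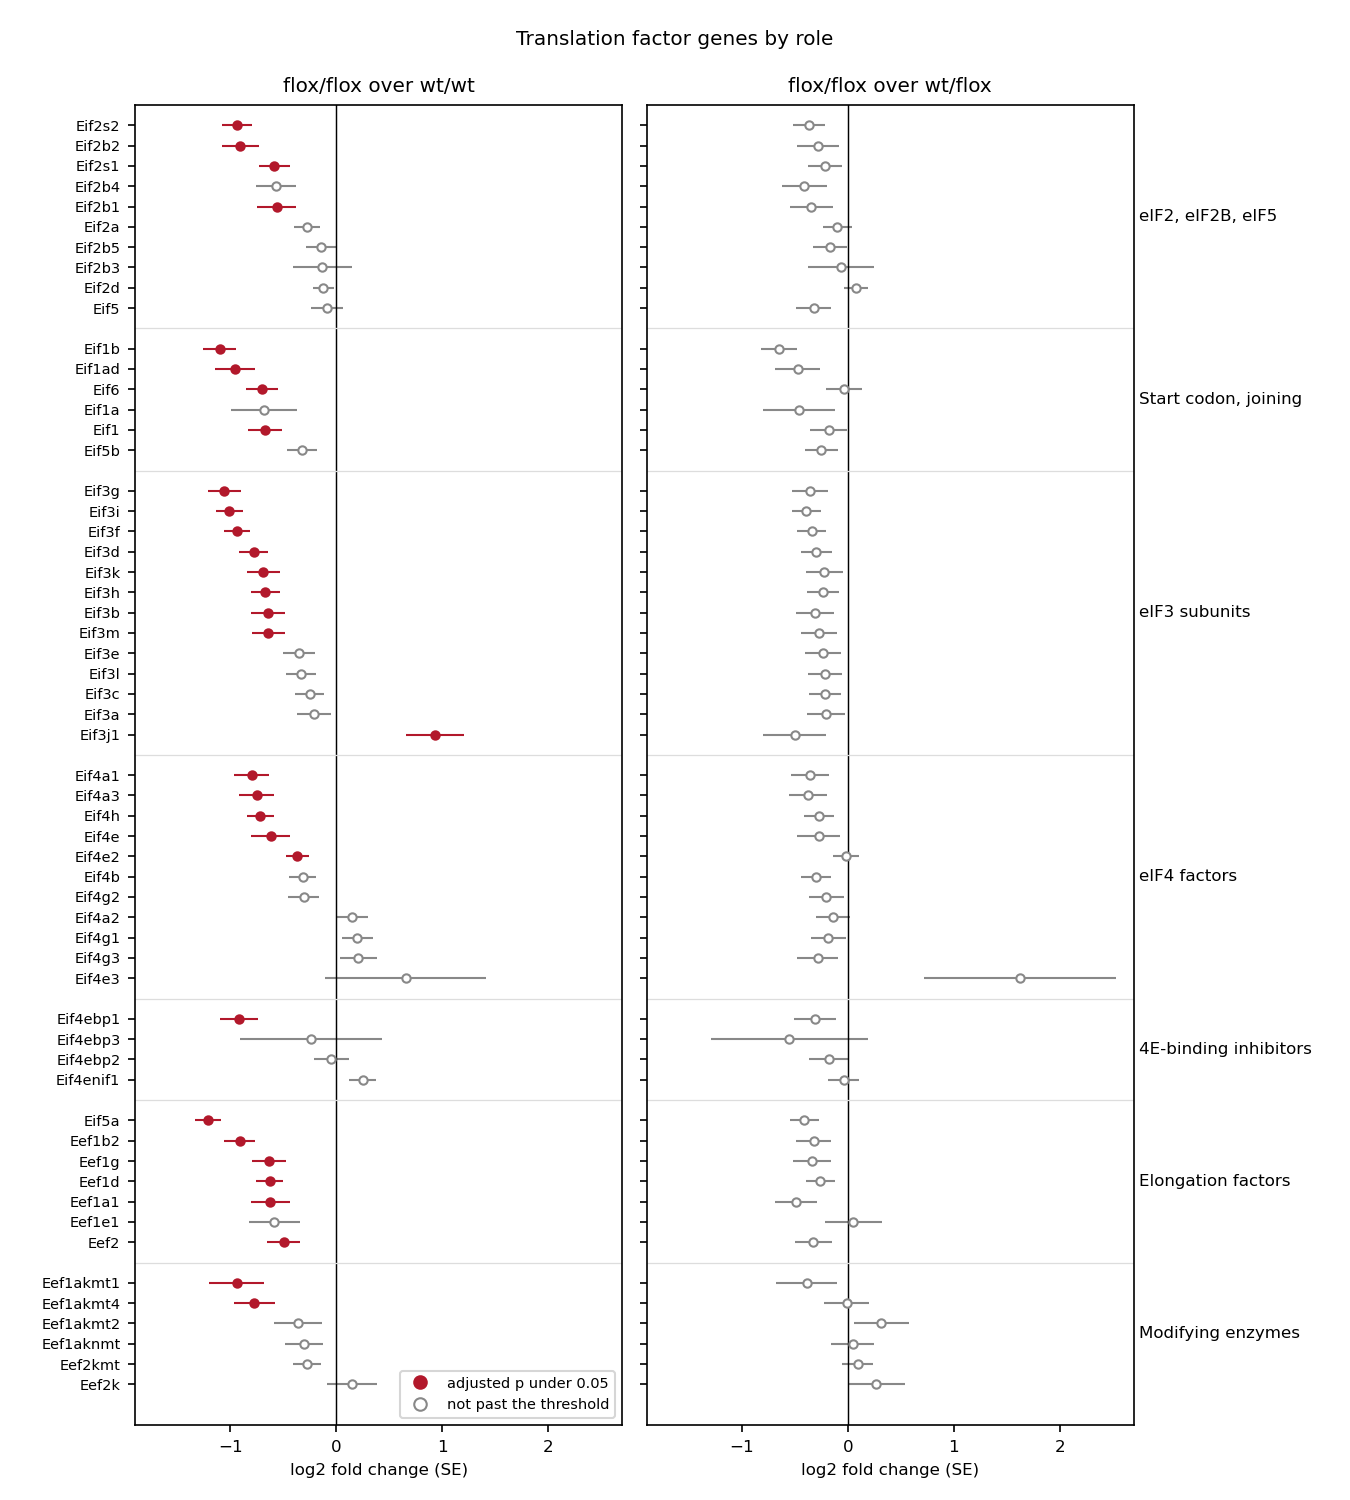
Log2 fold change of each of the 57 factor genes, grouped by role, in flox/flox over wt/wt (left) and flox/flox over wt/flox (right). Points are fitted values and bars their standard errors; filled points passed an adjusted p of 0.05. The 30 lower genes lie at negative values in the left panel across all role groups, and no point in the right panel is filled.

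Elongation factors held the largest share of the factor reads of any role group, and 6 of 7 genes were lower in flox/flox than in wt/wt, with a median log2 fold change of -0.63. Counts of lower genes by role, here and below, stand against the 14.7% of all tested genes that were lower in this comparison. Eif5a (chromosome 11, 69916714 to 69921958, GRCm38) encodes the hypusine-bearing factor that relieves stalled ribosomes, and it had the lowest fold change of all factor genes. Its levels were 107, 111 and 102 CPM in flox/flox, 153 and 131 CPM in wt/flox, and 231, 274 and 238 CPM in wt/wt. The flox/flox libraries were tightly grouped below both wt/flox libraries, which were in turn below all wt/wt libraries. The difference from wt/wt was a log2 fold change of -1.21 (SE 0.12, adjusted p = 0.00132), or 2.32-fold lower. In wt/flox against wt/wt it was -0.80 (adjusted p = 0.0169), and in flox/flox against wt/flox -0.41 (adjusted p = 0.558).

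Eef1a1 (chromosome 9, 78478449 to 78489151) encodes the carrier of aminoacyl-tRNA to the ribosome and was the most abundant factor mRNA per length, at 641 CPM per kilobase of exon in flox/flox, 901 in wt/flox and 987 in wt/wt (group means). Its levels by library were 1787, 1696 and 1309.8 CPM in flox/flox, 2576 and 1915 CPM in wt/flox, and 2372, 2665 and 2343 CPM in wt/wt. All flox/flox libraries were below the others, while one wt/flox library lay among the wt/wt libraries and the other below them. The fitted difference between flox/flox and wt/wt was a log2 fold change of -0.62 (SE 0.18, adjusted p = 0.0369), and between flox/flox and wt/flox -0.49 (SE 0.20). Eef2 (chromosome 10, 81176631 to 81182498), which encodes the translocase, was next, at 232 CPM per kilobase of exon in flox/flox, 292 in wt/flox and 327 in wt/wt.

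Eef2 had 816, 864 and 638 CPM in flox/flox, 1047 and 891 CPM in wt/flox, and 1036, 1152 and 1078 CPM in wt/wt. The flox/flox libraries were below all others here too, and the wt/flox libraries overlapped the wt/wt range. The fitted value was a log2 fold change of -0.49 (SE 0.16, adjusted p = 0.0469), but its call was among the least stable: it passed in 7 of 22 alternative analyses, and that of Eef1a1 in 13 of 22. With a term for sex read from the transcripts, the adjusted p was 0.0659 for Eef2 and 0.0537 for Eef1a1. Together Eef1a1 and Eef2 supplied 42.8% to 48.7% of the factor genes' CPM in each library.

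The exchange complex that recharges eEF1A was lower in all 3 of its subunits: Eef1b2 by 1.88-fold (adjusted p = 0.00475), Eef1g by 1.55-fold (adjusted p = 0.0217) and Eef1d by 1.55-fold (adjusted p = 0.00878). Eef1b2, the catalytic subunit beta, had 47.2, 47.2 and 37.0 CPM in flox/flox, 61.4 and 48.0 CPM in wt/flox, and 73.6, 87.5 and 86.3 CPM in wt/wt. The lower of the wt/flox values was close to the highest flox/flox value, and wt/wt stood clear of both. Eef1e1, which encodes a scaffold protein of the tRNA synthetase complex rather than a recharging subunit, had a log2 fold change of -0.59 and was not called (adjusted p = 0.101).

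**Figure D2:**
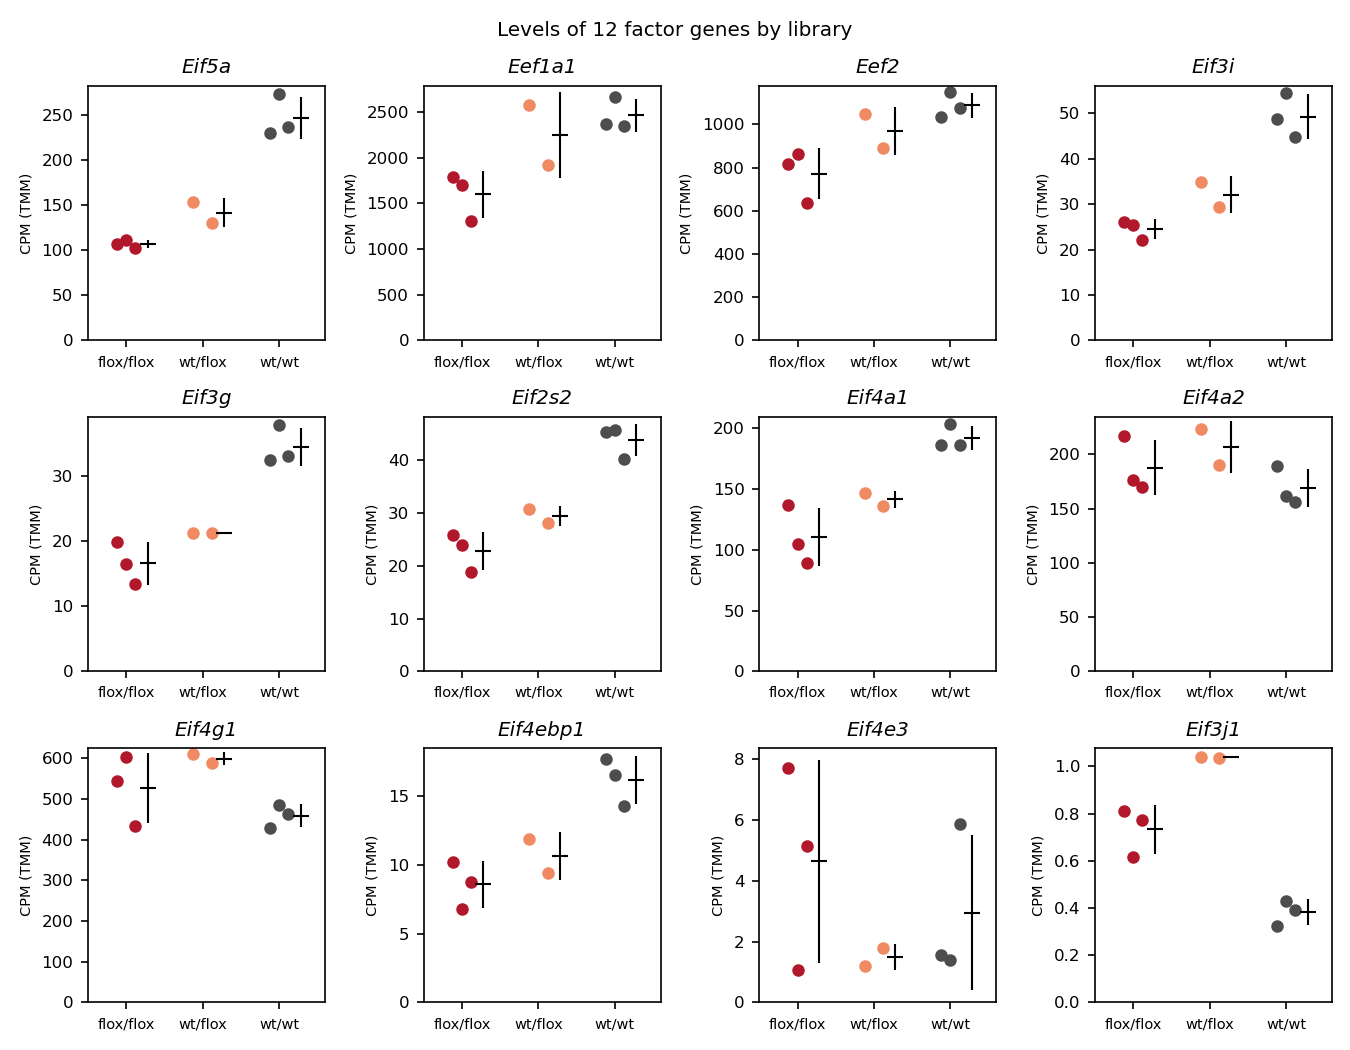
Levels of 12 factor genes in each library, in CPM with TMM scaling, for flox/flox (n = 3), wt/flox (n = 2) and wt/wt (n = 3). Dots are libraries, the cross-bar and line beside them are the mean and SD. Eif5a, Eif3i, Eif3g, Eif2s2, Eif4a1 and Eif4ebp1 step up from left to right without overlap between flox/flox and wt/wt, whereas Eif4a2 and Eif4g1 overlap.

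The enzymes that modify elongation factors were scarce, and 2 of 6 were lower in flox/flox than in wt/wt: Eef1akmt1 by 1.92-fold (adjusted p = 0.0294) and Eef1akmt4 by 1.71-fold (adjusted p = 0.0199), both lysine methyltransferases of eEF1A. Eef1akmt1 averaged 2.54 ± 0.681 CPM in flox/flox, 3.32 ± 0.408 CPM in wt/flox and 4.86 ± 1.12 CPM in wt/wt (SD, n = 3, 2 and 3). Eef2k, whose kinase inhibits eEF2, had 11.5, 17.8 and 20.0 CPM in flox/flox, 11.0 and 16.3 CPM in wt/flox, and 13.5, 17.3 and 13.7 CPM in wt/wt, with the groups overlapping and a log2 fold change of 0.15 (adjusted p = 0.661). Eef2kmt, a methyltransferase of eEF2, is uncertain because antisense reads made up 53.3% to 55.8% of its reads in flox/flox, 52.2% to 56.8% in wt/flox and 44.0% to 48.7% in wt/wt. Among the other factor genes, antisense reads exceeded 12% only in Eif5b and Eif4ebp1.

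In the group of eIF2, its exchange factor eIF2B and related factors, 4 of 10 genes were lower in flox/flox than in wt/wt, and the median log2 fold change was -0.42. Eif2s2 (chromosome 2, 154871410 to 154892935) encodes the beta subunit of eIF2, and it had 25.8, 23.8 and 18.9 CPM in flox/flox, 30.8 and 28.1 CPM in wt/flox, and 45.2, 45.6 and 40.2 CPM in wt/wt. The groups did not overlap in any pair of genotypes, with flox/flox lowest. The fitted difference of flox/flox from wt/wt was a log2 fold change of -0.94 (SE 0.14, adjusted p = 0.00336), and wt/flox against wt/wt fell just short of the threshold at -0.57 (adjusted p = 0.0502). Eif2s1 (chromosome 12, 78861819 to 78887010), the alpha subunit that the stress kinases phosphorylate, had 31.0, 25.1 and 21.2 CPM in flox/flox, 31.5 and 28.5 CPM in wt/flox, and 39.3, 39.6 and 37.2 CPM in wt/wt. Its flox/flox libraries were below all wt/wt libraries but reached the wt/flox range. The fitted value was a log2 fold change of -0.59 (SE 0.15, adjusted p = 0.0202).

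Of the 5 eIF2B subunits, which exchange the nucleotide on eIF2, Eif2b2 was 1.87-fold lower (adjusted p = 0.00852) and Eif2b1 1.48-fold lower (adjusted p = 0.0488), and the remaining 3 were not called. The call of Eif2b1 was kept in 11 of 22 alternatives. Eif2b2, the beta subunit, averaged 5.65 ± 1.21 CPM in flox/flox, 6.87 ± 0.313 CPM in wt/flox and 10.6 ± 1.17 CPM in wt/wt (SD, n = 3, 2 and 3). Eif2b5, which encodes the catalytic epsilon subunit, had 32.4, 31.8 and 23.6 CPM in flox/flox, 34.8 and 31.1 CPM in wt/flox, and 30.4, 34.8 and 31.6 CPM in wt/wt, with overlapping groups and a log2 fold change of -0.14 (adjusted p = 0.483). Eif2b3 had the lowest level of this group per length and a log2 fold change of -0.13 (adjusted p = 0.746). Eif5, which activates GTP hydrolysis by eIF2, had 189, 199 and 157 CPM in flox/flox, 249 and 207 CPM in wt/flox, and 188, 218 and 174 CPM in wt/wt, and the groups overlapped (log2 fold change -0.09, adjusted p = 0.681).

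Among the factors of start codon choice and subunit joining, 4 of 6 genes were lower in flox/flox than in wt/wt. Eif1b (chromosome 9, 120492232 to 120495330), a close relative of the scanning factor Eif1, had 5.51, 4.89 and 4.04 CPM in flox/flox, 7.34 and 7.78 CPM in wt/flox, and 10.2, 11.5 and 9.09 CPM in wt/wt. No pair of groups overlapped, flox/flox being lowest and wt/wt highest. The difference of flox/flox from wt/wt was a log2 fold change of -1.10 (SE 0.16, adjusted p = 0.00301), and its log2 fold change of -0.65 against wt/flox was the lowest of any factor gene in that comparison (adjusted p = 0.558). Eif1 itself averaged 121 ± 8.57 CPM in flox/flox, 137 ± 34.6 CPM in wt/flox and 193 ± 18.1 CPM in wt/wt (SD, n = 3, 2 and 3).

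Eif1 was 1.60-fold lower in flox/flox than in wt/wt (adjusted p = 0.0166), and Eif1ad, which takes part in assembly of the small subunit, 1.94-fold lower (adjusted p = 0.00932). Eif6, whose product keeps the subunits apart, had 25.5, 19.3 and 17.4 CPM in flox/flox, 21.8 and 20.7 CPM in wt/flox, and 31.4, 35.4 and 34.3 CPM in wt/wt. Here wt/flox lay inside the flox/flox range and both were below wt/wt, with log2 fold changes against wt/wt of -0.70 in flox/flox (adjusted p = 0.0125) and -0.67 in wt/flox (adjusted p = 0.0437). Eif1a, the scanning factor eIF1A, was not called and varied among the flox/flox mice, with 62.7, 29.9 and 27.8 CPM in flox/flox, 58.6 and 52.2 CPM in wt/flox, and 52.9, 65.4 and 74.8 CPM in wt/wt.

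The eIF3 complex held both called and uncalled subunits. Of its 13 subunit genes, 8 were lower in flox/flox than in wt/wt (Eif3b, Eif3d, Eif3f, Eif3g, Eif3h, Eif3i, Eif3k and Eif3m), 4 were not called (Eif3a, Eif3c, Eif3e and Eif3l) and Eif3j1 was higher. Eif3g (chromosome 9, 20894349 to 20898623) and Eif3i (chromosome 4, 129591960 to 129600648) encode subunits of the module that also holds Eif3b. Eif3g was 2.08-fold lower and Eif3i 2.01-fold lower. Eif3g had 19.9, 16.5 and 13.3 CPM in flox/flox, 21.2 and 21.2 CPM in wt/flox, and 32.4, 37.8 and 33.1 CPM in wt/wt. Eif3i had 26.1, 25.3 and 22.0 CPM in flox/flox, 34.9 and 29.3 CPM in wt/flox, and 48.7, 54.4 and 44.7 CPM in wt/wt. For each of these genes all flox/flox libraries were below both wt/flox libraries, and these below all wt/wt libraries.

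The fitted log2 fold changes between flox/flox and wt/wt were -1.06 for Eif3g (SE 0.15, adjusted p = 0.00336), -1.01 for Eif3i (SE 0.13, adjusted p = 0.00225) and -0.93 for Eif3f (SE 0.12, adjusted p = 0.00245). The same genes were lower in wt/flox than in wt/wt, at -0.70, -0.62 and -0.59 in that order (adjusted p = 0.0395, 0.0335 and 0.0327). Eif3a (chromosome 19, 60761117 to 60790658), the largest subunit and the scaffold of the complex, had 150.3, 107 and 106 CPM in flox/flox, 134 and 145 CPM in wt/flox, and 135, 131 and 155 CPM in wt/wt. The groups overlapped, and its log2 fold change was -0.21 (adjusted p = 0.345). Eif3c, the other large scaffold subunit, had a value of -0.25 (adjusted p = 0.198).

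Eif3j1, the loosely bound subunit eIF3j, was the 1 gene called higher, in both flox/flox and wt/flox against wt/wt. It was also the scarcest factor gene, with 73, 69 and 102 sense reads in flox/flox, 89 and 73 in wt/flox, and 32, 51 and 43 in wt/wt. The value is uncertain, because reads that align equally well to its near-identical copy Eif3j2 were tallied apart by the authors. Alignments to several places made up 3.92% to 4.98% in flox/flox and wt/flox and 8.97% to 10.9% in wt/wt. The fitted value against wt/wt was a log2 fold change of 0.93 (SE 0.27, adjusted p = 0.0360) in flox/flox and a log2 fold change of 1.44 (SE 0.30, adjusted p = 0.0250) in wt/flox. In flox/flox the call was kept in 7 of the 21 alternatives that could test it.

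Among the eIF4 factors of cap binding and unwinding, 5 of 11 genes were lower in flox/flox than in wt/wt: Eif4a1, Eif4a3, Eif4e, Eif4e2 and Eif4h. Eif4a1 (chromosome 11, 69666936 to 69672423) encodes the main helicase of the cap complex and had 137, 105 and 89.4 CPM in flox/flox, 146 and 136 CPM in wt/flox, and 186, 203 and 186 CPM in wt/wt. Its flox/flox libraries were all below wt/wt, and the highest reached the wt/flox range. The fitted value was a log2 fold change of -0.80 (SE 0.16, adjusted p = 0.0100). Eif4a2 (chromosome 16, 23107444 to 23114136), the paralogous helicase, had 216, 177 and 169.5 CPM in flox/flox, 223 and 189.9 CPM in wt/flox, and 189, 162 and 156 CPM in wt/wt. The groups overlapped (log2 fold change 0.15, adjusted p = 0.460). GENCODE places 3 small nucleolar RNA genes within Eif4a1 and 6 small RNA genes within Eif4a2, whose reads cannot be told apart from the host's where they touch an exon. The same limit holds for Eef1a1, Eif3j1, Eif4e, Eif4g1, Eif4g2 and Eif5, each with 1 small RNA gene that touches an exon.

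Eif4e (chromosome 3, 138526179 to 138559696), the cap-binding protein, had 31.4, 27.6 and 18.7 CPM in flox/flox, 30.1 and 32.8 CPM in wt/flox, and 38.7, 43.4 and 37.4 CPM in wt/wt. Each flox/flox value was below each wt/wt value, and wt/flox lay within or near the upper end of flox/flox. Its log2 fold change of -0.62 (SE 0.19, adjusted p = 0.0392) was kept as a call in 12 of 22 alternatives. Eif4g1 (chromosome 16, 20668313 to 20692884), the scaffold that joins eIF4E, eIF4A and the poly(A)-binding protein, had 545, 603 and 435 CPM in flox/flox, 611 and 588 CPM in wt/flox, and 429, 485 and 464 CPM in wt/wt. It was not called (log2 fold change 0.20, adjusted p = 0.342), with 1 flox/flox library inside the wt/wt range and both others above it, as were both wt/flox libraries. Eif4g1 was the most abundant eIF4 factor per length, at 72.2 CPM per kilobase of exon in flox/flox, 82.1 in wt/flox and 63.0 in wt/wt. In flox/flox, Eef1a1 and Eef2 were the factor genes above it per length, and in wt/wt Eif5a and Eif1 stood above it as well.

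Eif4e3, a cap-binding relative, had 7.72, 1.06 and 5.14 CPM in flox/flox, 1.20 and 1.80 CPM in wt/flox, and 1.55, 1.40 and 5.89 CPM in wt/wt. The 3 high libraries, flox/flox replicates 1 and 3 and wt/wt replicate 3, were those labelled female, although Y-linked reads contradict that label for flox/flox replicate 1. The lowest value, 1.06 CPM, was that of flox/flox replicate 2, which was female by transcripts, so the levels did not follow sex read from the transcripts. The other eIF4 factors not called were Eif4b, Eif4g2 and Eif4g3, with log2 fold changes of -0.32, -0.31 and 0.21.

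Of the 4 inhibitors that bind eIF4E, only Eif4ebp1 was called lower. Eif4ebp1 (chromosome 8, 27260329 to 27276674) encodes the repressor that mTOR releases from eIF4E, and it had 10.2, 6.76 and 8.76 CPM in flox/flox, 11.9 and 9.43 CPM in wt/flox, and 17.7, 16.6 and 14.3 CPM in wt/wt. The flox/flox libraries overlapped the wt/flox values and lay below all of wt/wt, with a log2 fold change of -0.92 (SE 0.18, adjusted p = 0.00882). Eif4ebp2, its more abundant relative, had 76.5, 108 and 90.7 CPM in flox/flox, 110.0 and 98.0 CPM in wt/flox, and 95.7, 109 and 79.8 CPM in wt/wt, with overlapping groups and a log2 fold change of -0.05 (adjusted p = 0.847). Eif4ebp3 varied more within groups than between them, at 15.9 ± 16.2 CPM in flox/flox, 23.4 ± 8.94 CPM in wt/flox and 18.8 ± 7.71 CPM in wt/wt (SD, n = 3, 2 and 3), and Eif4enif1, the nuclear shuttle of eIF4E, had a log2 fold change of 0.25 (adjusted p = 0.171).

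To set partner genes side by side, ratios of CPM per kilobase were taken within each library. They come from the same libraries as the fold changes above and are no separate support for them. Eif4a1, Eif4e, Eif3g and Eif4ebp1 were called lower in flox/flox against wt/wt. Their partners Eif4a2, Eif4g1, Eif3a and Eif4ebp2 were not called, so a fall in these ratios follows from the fold changes. The ratio of Eif4a1 to Eif4a2 averaged 0.720 ± 0.0652 in flox/flox, 0.846 ± 0.0545 in wt/flox and 1.41 ± 0.173 in wt/wt (SD, n = 3, 2 and 3). Per kilobase of exon, Eif4a1 was thus above Eif4a2 in each wt/wt library and below it in each flox/flox and wt/flox library. The order depends on the division by exon length in wt/wt replicate 1, where Eif4a1 had 186 CPM and Eif4a2 189 CPM. The ratio of Eif4e to Eif4g1 was 0.0593 ± 0.00945 in flox/flox, 0.0637 ± 0.00562 in wt/flox and 0.105 ± 0.00646 in wt/wt, and that of Eif3g to Eif3a 0.604 ± 0.0661 in flox/flox, 0.669 ± 0.0349 in wt/flox and 1.09 ± 0.169 in wt/wt. Eif4ebp1 to Eif4ebp2 gave 0.257 ± 0.0933 in flox/flox, 0.269 ± 0.0216 in wt/flox and 0.453 ± 0.0463 in wt/wt, and Eif5a to Eef2 0.196 ± 0.0244 in flox/flox, 0.205 in both wt/flox libraries and 0.318 ± 0.0133 in wt/wt.

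In each of these 5 ratios the flox/flox libraries were all below the wt/wt libraries, and the exact two-sided permutation test gave p = 0.1, the smallest that 3 against 3 libraries allow (adjusted p = 0.133 over the 8 ratios computed). Eef1a1 to Eef1b2 had the opposite order, at 37.0 ± 1.34 in flox/flox, 41.5 ± 1.48 in wt/flox and 30.4 ± 2.63 in wt/wt, with the same exact p. The ratio of Eif4g1 to Eif4g3 was 14.3 ± 3.07 in flox/flox, 13.0 ± 0.631 in wt/flox and 14.1 ± 1.97 in wt/wt (exact permutation p = 1), and that of Eif4e to Eif4ebp1 1.13 ± 0.356 in flox/flox, 1.10 ± 0.243 in wt/flox and 0.904 ± 0.0924 in wt/wt (exact permutation p = 0.5). None of the ratios could pass 0.05 in this design.

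**Figure D3:**
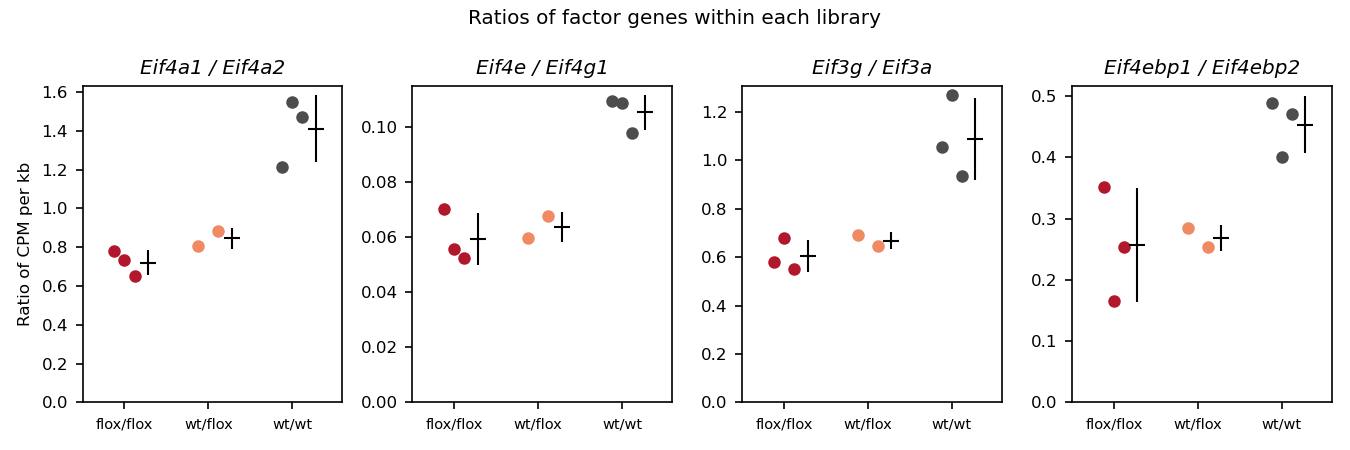
Ratios of CPM per kilobase of exon for 4 pairs of factor genes within each library, for flox/flox (n = 3), wt/flox (n = 2) and wt/wt (n = 3). Dots are libraries, the cross-bar and line beside them are the mean and SD. In all 4 pairs the flox/flox and wt/flox libraries lie below every wt/wt library.

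Summed over all 57 factor genes, the level was 6003, 5736 and 4556 CPM in flox/flox, 7432 and 6228 CPM in wt/flox, and 7238, 7943 and 7238 CPM in wt/wt. Each flox/flox sum was below each wt/flox and wt/wt sum, and one wt/flox sum lay within the wt/wt range. Summed elongation factors had 2872, 2825 and 2168 CPM in flox/flox, 3967 and 3104 CPM in wt/flox, and 3855, 4349 and 3899 CPM in wt/wt, and summed eIF3 subunits 642, 551 and 464 CPM in flox/flox, 681 and 637 CPM in wt/flox, and 754, 824 and 777 CPM in wt/wt. The eIF4 factors together had 1660.5, 1605 and 1269 CPM in flox/flox, 1836 and 1675 CPM in wt/flox, and 1674, 1749 and 1653 CPM in wt/wt, where flox/flox replicate 1 reached the wt/wt range, so that the sum of this group overlapped.

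The fold changes varied with gene length. Between flox/flox and wt/wt, all tested genes with under 2000 bases of exon had a median log2 fold change of -0.32, those of 2000 to 4000 bases -0.17, those of 4000 to 8000 bases 0.08 and longer ones 0.32. The factor genes in the same bins had medians of -0.84, -0.64, -0.32 and -0.31. Lower calls numbered 6 of 8, 16 of 23, 8 of 21 and 0 of 5 factor genes in these bins, against 28.4%, 20.2%, 9.27% and 3.32% of all tested genes. The 30 lower factor genes had a median exon length of 2649 bases and the 26 not called 5951 bases.

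When the trend with exon length was removed from the counts, 15 of the 30 genes were still called lower (Eef1b2, Eef1d, Eif1ad, Eif1b, Eif2s1, Eif2s2, Eif3d, Eif3f, Eif3g, Eif3i, Eif4a1, Eif4e2, Eif4ebp1, Eif4h and Eif5a), against 9% of all tested genes, and the median was -0.49. Eef1a1, Eef2, Eif1 and Eif4e were among those that were not. In wt/flox against wt/wt 0 factor genes passed after this correction, where 0.251% of all tested genes were lower and 0.672% higher, and the median was -0.17. Between flox/flox and wt/flox the medians of all tested genes in the bins were -0.00, 0.01, 0.05 and 0.06, while those of the factor genes were -0.32, -0.31, -0.24 and -0.21, so the factor genes lay below the other genes of their length in every bin there, with 0 called. The part of length in the differences from wt/wt was not tested apart from batch. The values against wt/flox carry no term for sex read from the transcripts.

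**Figure D4:**
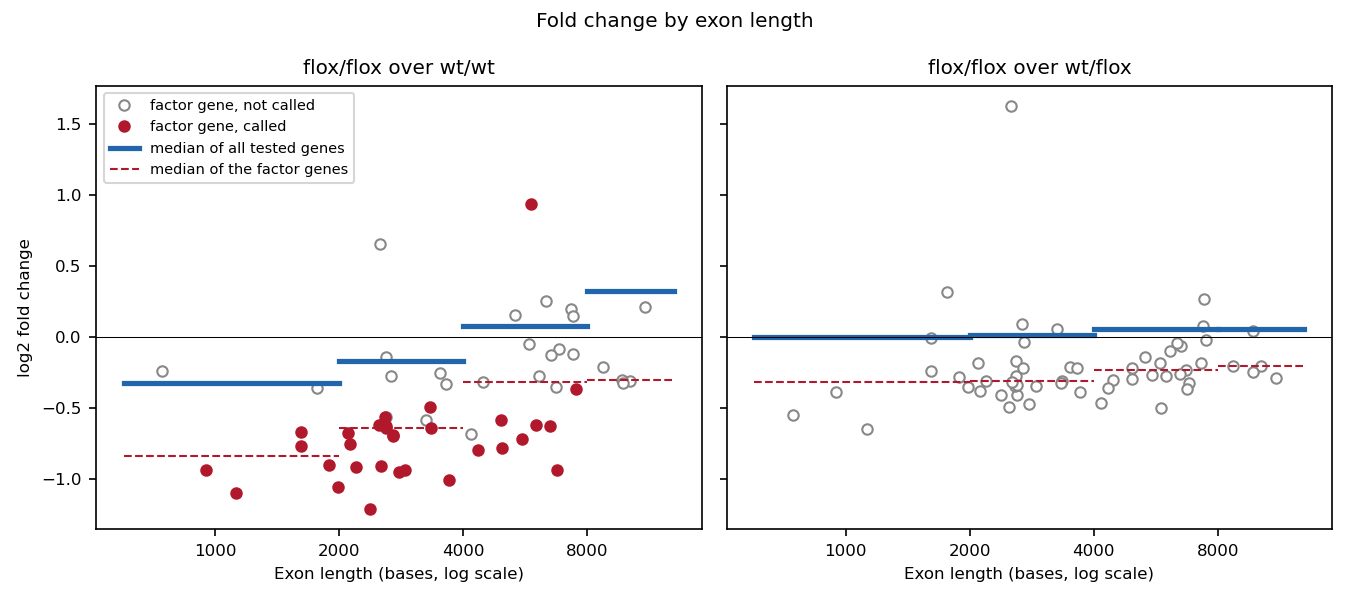
Log2 fold change against exon length (bases, log scale) for the 57 factor genes in flox/flox over wt/wt (left) and flox/flox over wt/flox (right). Circles are genes, filled where called; solid lines are medians of all tested genes and dashed lines medians of the factor genes in bins of length. The solid line climbs with length in the left panel and is nearly flat in the right one, and the dashed line lies below it in every bin of both panels.

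A list of 10 factor mRNAs known to begin with a terminal oligopyrimidine (TOP) tract, whose translation mTOR controls, was lower in 7 of 10 genes, with a median log2 fold change of -0.63 in flox/flox against wt/wt. The 47 other factor genes had 23 lower and a median of -0.57. Among all tested genes 14.7% were lower and the median was 0.02. Eif3a, Eif3e and Eif4b were the TOP mRNAs not called. Against wt/flox the medians were -0.31 for the TOP mRNAs and -0.25 for the others, with 0 called in each.

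Other translation genes were counted by list, and each count stands against the 15.1% of all tested genes that were higher and the 14.7% that were lower in flox/flox than in wt/wt. Of 9 eIF2 kinase and phosphatase genes, 0 were lower and 3 were higher in flox/flox than in wt/wt, all in the arm of the amino acid sensing kinase GCN2: Eif2ak4, which encodes GCN2, by 1.59-fold (adjusted p = 0.00510), its activator Gcn1 by 1.63-fold (adjusted p = 0.00691) and Impact, an inhibitor of that activation, by 1.59-fold (adjusted p = 0.00876). Gcn1 had 142, 140.5 and 108 CPM in flox/flox, 134 and 137 CPM in wt/flox, and 80.9, 82.3 and 77.0 CPM in wt/wt. The wt/flox libraries lay with flox/flox and apart from wt/wt. The same 3 genes were higher in wt/flox against wt/wt, at log2 fold changes of 0.55, 0.76 and 0.89 (adjusted p = 0.0316, 0.0194 and 0.0150).

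Of 15 genes of mTOR and MNK control, 3 were higher in flox/flox than in wt/wt: Mtor by 1.55-fold (adjusted p = 0.0103), its partner Rptor by 1.26-fold (adjusted p = 0.0335) and Tsc1, a restraint on the pathway, by 1.67-fold (adjusted p = 0.0108). The mTOR inhibitor Akt1s1 was 1.71-fold lower (adjusted p = 0.00378) and the activating GTPase Rheb 1.50-fold lower (adjusted p = 0.0145). With 3 of 15 higher and 2 of 15 lower, the list was near the shares of all tested genes. Against wt/flox 0 of these genes were called.

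Among 10 termination, recycling and reinitiation genes, 2 were lower and 1 higher, close to the shares of all tested genes. Denr, a reinitiation factor, was 2.29-fold lower (adjusted p = 0.00142), with 7.83, 6.54 and 6.15 CPM in flox/flox, 9.52 and 8.58 CPM in wt/flox, and 15.6, 15.7 and 15.7 CPM in wt/wt. Its wt/wt libraries were nearly identical and stood above both other groups. Abce1, the recycling ATPase, was 1.63-fold lower (adjusted p = 0.0392), and Gspt2, a scarce release factor paralogue, was 3.17-fold higher (adjusted p = 0.0294), at 0.929 ± 0.316 CPM in flox/flox, 0.251 ± 0.174 CPM in wt/flox and 0.293 ± 0.0515 CPM in wt/wt (SD, n = 3, 2 and 3).

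Of 8 genes that make hypusine, the modified residue of eIF5A, and diphthamide, that of eEF2, 2 were lower, a count near the 14.7% of all tested genes: Dohh, the hydroxylase that completes hypusine, by 1.67-fold (adjusted p = 0.0138) and Dph3, of the diphthamide pathway, by 1.69-fold (adjusted p = 0.00669). Paip2 and Paip2b, inhibitors of the poly(A)-binding protein, were the 2 lower of 5 genes in their list, by 1.30-fold (adjusted p = 0.0249) and 1.38-fold (adjusted p = 0.0153). In selenocysteine incorporation, 2 of 5 genes were lower, the dedicated elongation factor Eefsec by 1.39-fold (adjusted p = 0.00875) and the selenophosphate synthetase Sephs2 by 1.62-fold (adjusted p = 0.0197).

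Cell type markers moved between the same groups. Of the 10 hepatocyte markers 4 were higher in flox/flox than in wt/wt, and of the 10 sinusoidal endothelial markers 7 were lower. Counts of markers stand against the 15.1% of all tested genes that were higher and the 14.7% that were lower. The endothelial markers summed to 70.2 to 149.6 CPM in flox/flox, 82.4 to 92.4 CPM in wt/flox and 166 to 263 CPM in wt/wt. The 10 Kupffer and macrophage markers summed to 30.6 to 106 CPM in flox/flox, 31.3 to 32.4 CPM in wt/flox and 56.8 to 244 CPM in wt/wt, with 0 called and the high value in wt/wt replicate 3. Stellate, lymphocyte, neutrophil, cholangiocyte and erythroid lists had 0 or 1 marker called in each direction, and 3 erythroid markers were at 0 in every library. The 7 cholangiocyte markers summed to 66.5 to 125 CPM in flox/flox, 39.2 to 72.6 CPM in wt/flox and 41.0 to 46.3 CPM in wt/wt. The part of these markers in the lower levels of the factor genes was not tested.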

How the data were processed

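Bulk RNA libraries of 8 mice were read as raw read counts per gene symbol, which the authors deposited with sense and antisense reads apart. DESeq2 and GRCm38 (mm10) appear in the submitters' processing notes; no source used here gives the aligner, counter or annotation. Reads in no gene, in several genes or aligned to several places stand in rows that name no gene and were left out. In wt/wt they made up 22.2% to 28.1%, 0.511% to 0.668% and 8.97% to 10.9%, in that order. In the other 5 libraries they made up 31.7% to 40.0%, 0.317% to 0.419% and 3.92% to 4.98%, so each share separated wt/wt from the rest. Only the last share counts alignments to several places in its total.

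Sense counts were tested with edgeR 4.0.16 (R 4.3.3): TMM scaling, filterByExpr, quasi-likelihood F test, genotype as the only term over all 8 libraries, Benjamini-Hochberg adjustment over 14728 genes at 0.05, two-sided. The labelled sex was no term, because transcripts contradict it in 2 libraries. CPM use TMM-scaled library sizes, and CPM per kilobase divides by exon length (GENCODE M21, all 57 genes matched). Alternatives were RLE, upper-quartile and no composition scaling, 2 filters, DESeq2 1.42.0, limma-voom 3.58.1, sex terms, the replicate number as a block, a loess correction for exon length, antisense reads added, 2 groups only, and each library left out. Every pair of libraries differed by more than sampling noise. By chi-square per degree of freedom, flox/flox replicate 1 was nearer to the wt/flox libraries (160 and 138) than to flox/flox replicates 2 and 3 (649 and 551). Those replicates were at 191 from each other. Likewise wt/wt replicate 3 stood apart from wt/wt replicates 1 and 2 (431 and 415). By transcripts flox/flox replicate 1, the wt/flox libraries and wt/wt replicates 1 and 2 were male, and flox/flox replicates 2 and 3 and wt/wt replicate 3 female. These distances thus go along with sex, whose part in them was not tested. Whether flox/flox replicate 1 belongs to its labelled group was not tested either. The script was checked on simulated counts in which few genes were changed. Of genes changed 1.5-fold, 0% were called in each comparison. Of those changed 2-fold, 14.9% were called in flox/flox against wt/wt, 7.46% in flox/flox against wt/flox and 11.9% in wt/flox against wt/wt. For 4-fold changes the shares were 69.7%, 63.6% and 68.2% in that order. In the data, 29.9% of tested genes were called in flox/flox against wt/wt and 12.5% in wt/flox against wt/wt. The simulated shares therefore do not carry over to those comparisons. In flox/flox against wt/wt, factor genes were called lower from 1.29-fold. The lack of a call does not by itself show that a gene was unchanged.

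The genes, lists and tests were chosen with earlier results of these data known. Named in full are, per comparison, up to 12 called genes in each direction by fold change (or the 3 of smallest p), 6 genes always named (Eif2s1, Eif4e, Eif4ebp1, Eif3a, Eef1a1 and Eef2), the 2 most abundant and the 1 least abundant of each role per length, and up to 3 called genes of each other list. Genes named beside these were chosen after their values were seen.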

Additional observations from a re-analysis of the deposited data

How the results depend on the processing

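Between flox/flox and wt/wt the main analysis called 30 factor genes lower and 1 higher. The count of lower genes was 24 to 33 under all alternatives that kept every library, or left out the 2 libraries of contradicted sex, except library size alone (46, with 27.8% of all tested genes lower) and removal of the exon length trend (15, with 9% lower). Leaving out single libraries gave 15 to 36: the lowest count came on leaving out wt/wt replicate 2, and the highest on leaving out flox/flox replicate 1. The higher call, of Eif3j1, was lost with library size alone, every gene unfiltered, the labelled sex or the length trend removed. It was also lost without the contradicted libraries, with only the 2 groups compared, and whenever a wt/wt or flox/flox library was left out. A mean CPM minimum of 1 left Eif3j1 untested.

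In wt/flox against wt/wt the lower count of 5 became 3 with RLE factors or the labelled sex, 15 with upper-quartile factors, 34 with library size alone (21.8% of all tested genes lower), 13 with a mean CPM of at least 1, 9 with DESeq2, 11 with sex by transcripts, 8 without the contradicted libraries, with antisense reads added or with only the 2 groups compared, and 0 with the length trend removed (0.251%). It was 0 to 10 when single libraries were left out. The higher count of 1, of Eif3j1, was 0 with the length trend removed, and 2 without the contradicted libraries or with only the 2 groups compared. It was 0 to 2 when single wt/wt or flox/flox libraries were left out. With a mean CPM of at least 1 the count was 0 because Eif3j1 was not tested. The cause of these changes was not tested. For flox/flox against wt/flox every alternative gave 0 in both directions.

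Library size alone shifted the median log2 fold change of all tested genes to -0.31 in flox/flox and -0.42 in wt/flox against wt/wt, beside -0.92 and -0.70 for the factor genes, and upper-quartile factors shifted it to -0.14 in wt/flox against wt/wt. The median of the factor genes in flox/flox against wt/wt lay between -0.92 and -0.45, and in flox/flox against wt/flox between -0.53 (without the contradicted libraries) and -0.12 (sex by transcripts). Of the values of single named genes under alternatives, 2139 kept their side of the threshold, 59 gained a call, 109 lost one and 0 changed direction as a call. These counts pool all comparisons. No factor gene was called in any analysis of flox/flox against wt/flox, so every value there counts as kept.

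With the replicate number as a block, 31 factor genes were lower and 1 higher in flox/flox against wt/wt, 0 were called in flox/flox against wt/flox, and 6 were lower and 1 higher in wt/flox against wt/wt. Deviations of same-numbered libraries correlated at 0.0117 to 0.451, so the numbers, which coincide with age, were not taken as pairs. Depth limits Eif3j1 most, at 32 to 102 reads a library.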
